A study of Mus musculus with 16 samples.

Results

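The 9 genes described here carry the β-adrenergic signal from its receptor to protein kinase A (PKA) inside the cell, and they were chosen by symbol, for their place in the pathway, from the 14538 genes of the table. They are Gnas, which encodes the stimulatory G protein subunit Gsα; the adenylyl cyclase genes Adcy2, Adcy6 and Adcy9; the PKA catalytic subunit genes Prkaca and Prkacb; the regulatory subunit genes Prkar1a and Prkar2a; and Pkia, which encodes an inhibitor peptide of PKA. All 9 have a row, and all 9 were among the 11841 genes tested. No receptor gene is among the 9, and β-adrenergic receptor transcripts are not analysed here. RNA was sequenced from the tibialis anterior (TA), a muscle at the front of the shin built mainly of fast fibres, of male wild-type mice, C57BL/6 in the labels and C57BL/6J in the methods of the study, with 1 library per mouse. All mice ate the NASH diet, a diet that produces obesity and fatty liver, and lived at 29 °C, both from 8 weeks of age. From the start of treatment each mouse had its own cage, and chance had assigned the mice to groups of like weight and body composition. The 6 mice of the GDF15 group were injected under the skin once daily with recombinant GDF15, a hormone that lowers food intake through a hindbrain receptor, at a dose that the labels do not tie to these libraries. The daily ration of the 5 pair-fed mice was set by what the GDF15 group ate a day earlier, and the 5 vehicle mice were the control group. Every mouse thus carried the diet and the warm housing, and no library of lean or chow-fed mice was analysed here.

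When noradrenaline binds a β-adrenergic receptor, the receptor loads Gsα with GTP, and Gsα stimulates adenylyl cyclases in the plasma membrane to make cAMP. PKA rests as a tetramer of regulatory and catalytic subunits. Binding of cAMP to the regulatory subunits frees the catalytic subunits, which phosphorylate their targets until cAMP is broken down by phosphodiesterases. In skeletal muscle these targets include phosphorylase kinase, which starts glycogen breakdown, proteins of calcium release and uptake, and the transcription factor CREB. Each step is set largely by ligand, cAMP and protein location, so a transcript level is a measure of the machinery and not of its activity.

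The approximate depth of a library, read from the step between low values, lay between 9514787 and 15057271 reads, with medians of 13949577 reads in vehicle, 12148182 in GDF15 and 14268720 in pair-fed mice. Values are normalized counts, that is, reads scaled for library depth by the authors and transformed back here from their log2 scale. Differences are given as log2 fold changes with 95% confidence intervals from limma, fitted over all tested genes, and a gene was called at an adjusted p-value under 0.1. Summed muscle fibre markers (Acta1, Ckm, Myh4 and 5 others) reached 2015109.5 to 2441919.9 normalized counts per library, which matches the labelled tissue. The sum of 6 endothelial markers was 5089 to 6064 in vehicle, 4313 to 5344 in GDF15 and 4471 to 5368 in pair-fed mice. In whole muscle, fewer cells of a type and less RNA per cell cannot be told apart.

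PKA acts on transcription through CREB, which binds TGACGTCA or its short form TGACG. The 250 bases before the transcription starts listed by RefSeq (GRCm38.p6) were therefore read for these letters on both strands, with TGACG also counted inside TGACGTCA, and for the E-box CACGTG, which upstream factors such as USF and the clock proteins bind. Windows existed for 7 of the 9 genes, 18 windows in all. The short form lay in 9 of the 18 windows and in 17.8% of all 32851 windows searched, but windows of Gnas and of Prkar1a overlap and share sites, so the 18 are not independent. The only full site lay in a window of Prkar1a, and 1.55% of all windows held one. The E-box lay in 2 windows, 1 of Prkaca and 1 of Prkar1a, and in 6.02% of all windows. A match of letters is a description and not a binding site. The sequences below are those of Adcy9, the only one of the 9 genes called in any comparison, of Prkaca, the main catalytic subunit gene, and of the full site of Prkar1a. Capitals mark TGACG or its reverse complement CGTCA, TGACGTCA, and CACGTG.
Adcy9 (chr16:4420499-4420748, minus strand, upstream of the gene model): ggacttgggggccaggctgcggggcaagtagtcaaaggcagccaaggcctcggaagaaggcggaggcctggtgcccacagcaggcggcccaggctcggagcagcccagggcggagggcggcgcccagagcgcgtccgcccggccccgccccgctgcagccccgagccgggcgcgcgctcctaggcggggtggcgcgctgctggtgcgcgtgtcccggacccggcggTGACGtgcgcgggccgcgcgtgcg
Prkaca (chr8:83972728-83972977, plus strand, upstream of the gene model): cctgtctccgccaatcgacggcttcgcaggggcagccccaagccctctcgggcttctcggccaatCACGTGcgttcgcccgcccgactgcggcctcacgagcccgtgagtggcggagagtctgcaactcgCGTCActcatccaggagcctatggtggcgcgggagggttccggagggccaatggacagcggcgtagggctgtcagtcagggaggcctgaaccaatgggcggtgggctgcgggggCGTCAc
Prkar1a (chr11:109650889-109650918, plus strand, inside the gene model but in no annotated exon): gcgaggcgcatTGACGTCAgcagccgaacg
Adcy9 had a single short form close to its start, and Prkaca had 2 short forms and 1 E-box.

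The levels of the 9 transcripts spanned a wide range. Per kilobase of the median annotated coding transcript, the mean normalized count over the 16 libraries was 14804 for Pkia, 8151 for Gnas, 4493 for Prkar2a, 814 for Prkaca, 572 for Prkar1a, 250.5 for Adcy6, 209 for Prkacb, 196 for Adcy2 and 94.9 for Adcy9. Per kilobase of the longest coding transcript, the levels of Pkia, Prkar2a and Adcy6 were far lower, at 2583, 788 and 89.6, because these genes have short annotated transcripts with median lengths of 631, 871 and 2159 bp beside longest ones of 3617, 4965 and 6038 bp. With both lengths, Gnas lay above Prkar2a, Prkar2a above Prkaca, Prkaca above Prkar1a, Prkar1a above Adcy6, and Adcy2 above Adcy9 in 16 of 16 libraries. The remaining neighbours exchanged places with the length: Pkia lay above Gnas in 16 libraries with the median length and in 0 with the longest, Adcy6 above Prkacb in 14 and 0, and Prkacb above Adcy2 in 12 and 5. With either length the mean level of each cyclase lay below those of Gnas, Prkaca, Prkar1a, Prkar2a and Pkia.

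**Figure D1:**
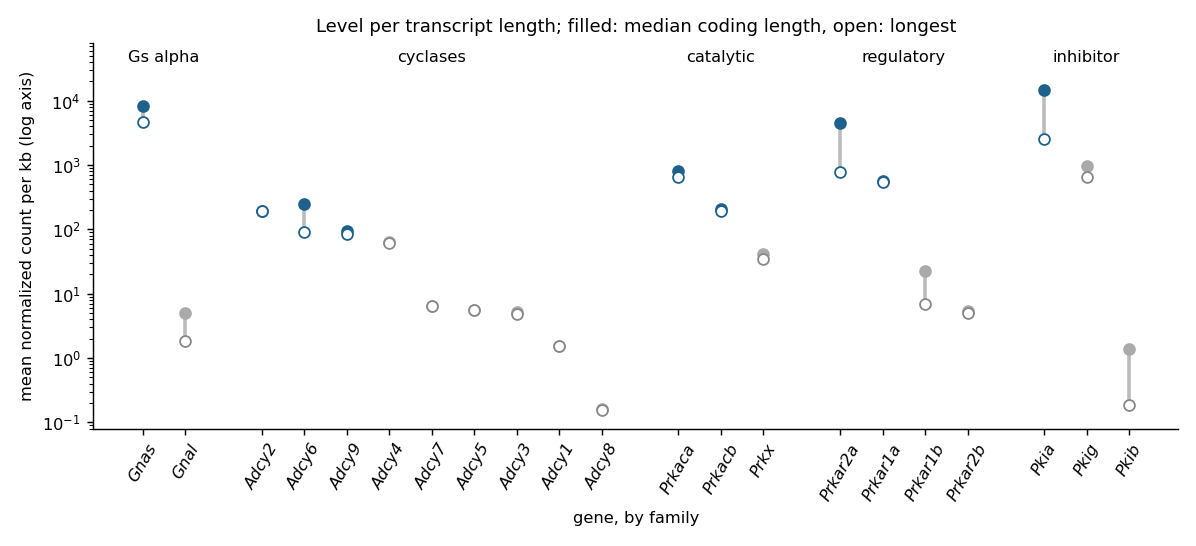
Mean normalized count per kilobase over the 16 libraries (log axis) for each of the 9 genes (blue) and their family members (grey), by family; filled points use the median coding transcript length, open points the longest, and a line joins both. Gnas lies at 8151 with the median length, the cyclases between 94.9 and 250.5, and most grey points lie far below the blue ones of their family.

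Within each family the 9 genes held most of the transcript level. Gnal, the only close relative of Gnas, reached 4.96 per kilobase of median transcript. Among the other cyclases Adcy4 reached 62.9 per kilobase, and Adcy7, Adcy5, Adcy3, Adcy1 and Adcy8 reached 6.35, 5.63, 5.13, 1.55 and 0.159. Prkx, a PKA-like kinase, reached 41.9, and the regulatory subunit genes Prkar1b and Prkar2b reached 22.8 and 5.47. The inhibitor genes Pkig and Pkib reached 981 and 1.37, so that Pkig was the only relative with a level above that of several of the 9 genes. Adcy10, the soluble cyclase gene, had no row.

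The make-up of each step was described by the share of a gene in the summed level of its family. Prkaca made up 75.9% ± 1.63 (SD, n = 5) of the catalytic subunit level per kilobase of median transcript in vehicle, 76.3% ± 0.905 (SD, n = 6) in GDF15 and 77.1% ± 0.218 (SD, n = 5) in pair-fed mice, and 73.8%, 74.2% and 75.0% with the longest length. Prkar2a, whose product tethers PKA to anchoring proteins, made up 88.1%, 87.8% and 88.7% of the regulatory level in the same order with the median length, and 58.2%, 57.8% and 59.7% with the longest. The ratio of catalytic to regulatory level was taken with Prkaca and Prkacb alone, without Prkx. It was 0.198 ± 0.00875 (SD, n = 5) in vehicle, 0.206 ± 0.0114 (SD, n = 6) in GDF15 and 0.199 ± 0.00978 (SD, n = 5) in pair-fed mice. The groups overlapped in this ratio, which was 0.619, 0.641 and 0.632 with the longest length. The share of Adcy9 among the cyclases differed most in its means, with 17.3% ± 1.40 (SD, n = 5) in vehicle, 14.6% ± 1.72 (SD, n = 6) in GDF15 and 13.9% ± 1.23 (SD, n = 5) in pair-fed mice, or 21.5%, 18.3% and 17.5% with the longest length. The groups overlapped in each of these shares, which were not tested.

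The comparison of GDF15 with pair-fed mice sets the hormone against the same food intake without it, and no transcript of the 9 was called in it. By limma 0 of 9 passed an adjusted p of 0.1, where 2.17% of all tested genes did, and 0 of 9 had an unadjusted p under 0.05, where 13.2% of all tested genes did. Between GDF15 and vehicle mice 0 of 9 were called, against 0.769% of all tested genes, and 1 of 9 had an unadjusted p under 0.05, against 11.0%. Between pair-fed and vehicle mice 1 of 9 was called, Adcy9, which was lower in pair-fed mice, where 6.37% of all tested genes were called and 3.17% were called lower. In that comparison 4 of 9 had an unadjusted p under 0.05, against 18.9% of all tested genes. None of the 9 passed the adjusted p together with a log2 fold change of 0.6 in any comparison, which 0.279%, 0.304% and 0.819% of all tested genes did in the same order. None had groups without overlap either, against 1.77%, 1.65% and 5.44% of all tested genes. Positive log2 fold changes were found for 7, 4 and 3 of the 9 genes in the same order, beside 50.8%, 50.4% and 50.2% of all tested genes. The median log2 fold change of the 9 genes was 0.07, -0.01 and -0.03, and that of all tested genes was 0.00 in each comparison. The comparisons share samples, since each group enters a pair of them.

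**Figure D2:**
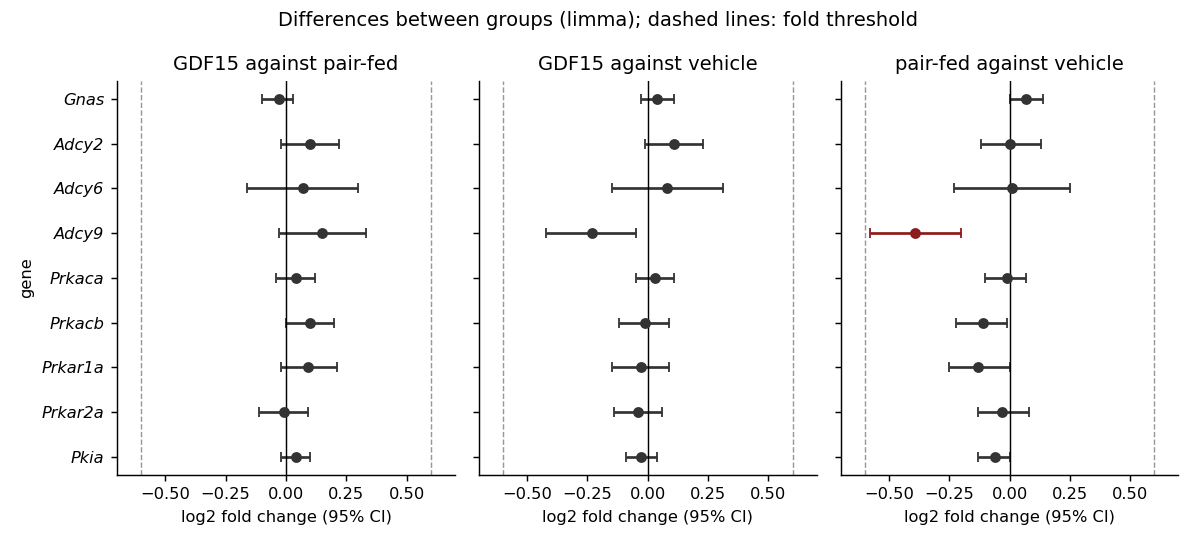
Log2 fold change (point) and 95% confidence interval (bar) of the 9 genes in each of the 3 comparisons, from limma over all tested genes; dashed lines stand at a log2 fold change of 0.6 in size. Every interval lies inside the dashed lines, and the only called value (red) is that of Adcy9 between pair-fed and vehicle mice, at -0.39.

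Gnas lies at the head of the intracellular chain. The gene lies on chr2:174284320-174346744 (GRCm38, plus strand) in an imprinted locus with several alternative first exons, and counts by symbol pool its 24 annotated transcripts. Nespas and Gm20721 overlap its exons on the opposite strand and have no row. Its normalized counts were 17822, 18052, 18555, 17862 and 17552 in the vehicle mice and 19209.8, 19316, 17751, 18895 and 19305 in the pair-fed mice, and in the GDF15 mice they ran from 17466 over a median of 18676 to 18692. Of the 5 pair-fed mice 4 lay above all vehicle mice, and the groups overlapped through pair-fed mouse 4. Against vehicle, the log2 fold change of Gnas was 0.07 (95% CI 0.00 to 0.14, limma adjusted p = 0.259) in pair-fed and 0.04 (95% CI -0.03 to 0.11, adjusted p = 0.738) in GDF15 mice. Between GDF15 and pair-fed mice it was -0.03 (95% CI -0.10 to 0.03, adjusted p = 0.691), an interval that spans a change from -6.86% to 2.36%. Without pair-fed mouse 4 the last value of Gnas was -0.06 (limma adjusted p = 0.468). Over 29 other fits, with another setting or 1 library left out, Gnas in pair-fed against vehicle mice ran from 0.03 to 0.09 (limma adjusted p from 0.125 to 0.758).

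**Figure D3:**
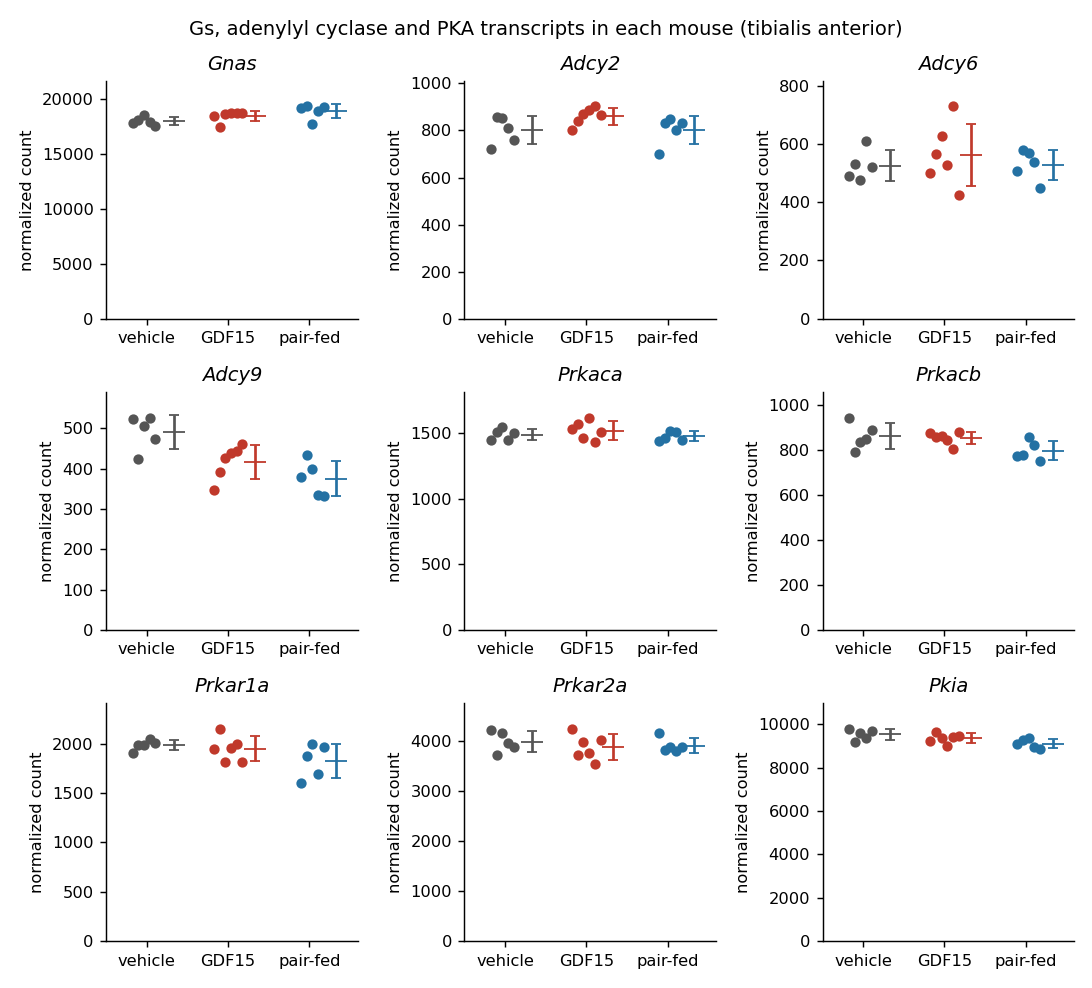
Normalized count (linear axis from 0) of each of the 9 genes in every mouse, with 1 point per mouse and the mean ± SD of the group beside it (5 vehicle, 6 GDF15, 5 pair-fed). Adcy9 lies between 424 and 527 in vehicle and between 332 and 433 in pair-fed mice, and the groups overlap in every panel.

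Among the 3 cyclases, Adcy9 (chr16:4287529-4420498, minus strand) was lower in pair-fed than in vehicle mice. Its product is a widely expressed membrane cyclase that Gsα stimulates and that responds weakly to forskolin. The normalized counts of Adcy9 were 524, 424, 506, 527 and 475 in the vehicle mice and 380.4, 433, 399.5, 334 and 332 in the pair-fed mice. In the GDF15 mice they ran from 346 over a median of 432 to 461. Of the 5 pair-fed mice 4 lay below all vehicle mice, and the groups overlapped through vehicle mouse 2 and pair-fed mouse 3. The fall in Adcy9 from vehicle to pair-fed mice was -0.39 ± 0.09 on the log2 scale (SE; 95% CI -0.58 to -0.20; limma adjusted p = 0.0249), a change of -23.6% with an interval from -32.9% to -12.9%. The GDF15 mice lay between both groups in their mean, with 418 ± 41.9 (SD, n = 6) beside 491 ± 42.8 (SD, n = 5) in vehicle and 376 ± 43.5 (SD, n = 5) in pair-fed mice. Their log2 fold change of Adcy9 was -0.23 against vehicle (95% CI -0.42 to -0.05, limma adjusted p = 0.310) and 0.15 against pair-fed (95% CI -0.03 to 0.33, adjusted p = 0.464), so neither neighbour of the GDF15 group was told apart from it.

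Markers of cell types were set beside Adcy9 in the same comparison, pair-fed against vehicle mice. Of the 6 endothelial markers 0 had a positive and 6 a negative log2 fold change in pair-fed against vehicle mice, with a median of -0.18. By limma 1 of them was called and 5 had an unadjusted p under 0.05. In GDF15 against vehicle mice the median was -0.15. Of the smooth muscle markers 5 of 5 had negative values in pair-fed against vehicle mice with 1 called, and of the 8 muscle fibre markers 5 had positive and 3 negative values, with 2 called higher (Actn3 and Ckm) and 2 lower (Myh1 and Mb). An unadjusted p under 0.05 by limma was found for 2 of the smooth muscle and 5 of the muscle fibre markers. Of all tested genes 50.2% had positive values in pair-fed against vehicle mice, 3.20% were called higher, 3.17% were called lower, and 18.9% had an unadjusted p under 0.05. Of the markers of other cell types, 6 of 6 Schwann cell markers had negative values (median -0.18), 5 of 6 macrophage markers did (median -0.15), and 6 of 6 adipocyte markers had positive ones (median 0.58), with 0 called in each by limma and 0 at an unadjusted p under 0.05. Fibroblast markers (2 positive, 3 negative), red blood cell markers (2 and 1) and tested satellite cell markers (1 and 1) were mixed. They too had 0 called by limma and 0 at an unadjusted p under 0.05. The part of all these lists in the result was not tested. None of the markers of these lists was at 0 in all 16 libraries. With the endothelial marker sum as a covariate, a fit chosen after these values were seen, the log2 fold change of Adcy9 between pair-fed and vehicle mice was -0.28 and no longer called (limma adjusted p = 0.466). In GDF15 against vehicle mice the value of Adcy9 with this covariate was -0.12 (limma adjusted p = 0.832). In the same fit 27 of the tested genes were called between pair-fed and vehicle mice (0.228%), in place of 754. The marker sum had medians of 5782 in vehicle, 4712 in GDF15 and 4849.6 in pair-fed mice. Marker sum and group thus go together, and fits with this covariate cannot tell them apart. Without any one library the log2 fold change of Adcy9 stayed between -0.44 and -0.35, with adjusted p-values from 0.0111 to 0.0743.

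The other cyclases were not called in any comparison. Adcy2 (chr13:68620043-68999541, minus strand), which Gβγ and protein kinase C can stimulate, had 801 ± 59.5 normalized counts (SD, n = 5) in vehicle, 861 ± 35.9 (SD, n = 6) in GDF15 and 803 ± 58.8 (SD, n = 5) in pair-fed mice. Of the 6 GDF15 mice 4 lay above all pair-fed mice, and 4 above all vehicle mice. The log2 fold change of Adcy2 in GDF15 mice was 0.10 against pair-fed (95% CI -0.02 to 0.22, limma adjusted p = 0.460) and 0.11 against vehicle (95% CI -0.01 to 0.23, adjusted p = 0.519). Without pair-fed mouse 2 the former value of Adcy2 was 0.06 (adjusted p = 0.755), and without vehicle mouse 1 the latter was 0.07 (adjusted p = 0.746). Adcy6 (chr15:98589973-98610076, minus strand), a cyclase that calcium and Gi inhibit, had the widest spread of the 9 genes, from 424 to 729.6 normalized counts in the GDF15 mice alone. Its 3 group means were 527 ± 51.8 (SD, n = 5) in vehicle, 563 ± 106 (SD, n = 6) in GDF15 and 529 ± 52.2 (SD, n = 5) in pair-fed mice, and the groups overlapped throughout. Between GDF15 and pair-fed mice the log2 fold change of Adcy6 was 0.07 (95% CI -0.16 to 0.30, limma adjusted p = 0.813), so that changes from -10.2% to 23.3% lie inside its interval. Without GDF15 mouse 5, its highest value, the log2 fold change of Adcy6 between GDF15 and vehicle mice was 0.001 (limma adjusted p = 0.999), and without GDF15 mouse 6 it was 0.16 (adjusted p = 0.621). With the endothelial marker sum as a covariate the values against vehicle were larger and not called by limma: in GDF15 mice 0.26 for Adcy2 (adjusted p = 0.246) and 0.42 for Adcy6 (adjusted p = 0.336), beside 0.11 and 0.08 without it, and in pair-fed mice 0.15 for Adcy2 (adjusted p = 0.495) and 0.32 for Adcy6 (adjusted p = 0.385). Exons of Gm35161 and Gm29331 lie on the strands opposite to Adcy2 and Adcy6, and neither gene has a row.

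The catalytic subunits of PKA phosphorylate its targets. Prkaca (chr8:83972993-83996443, plus strand) had 1489 ± 43.0 normalized counts (SD, n = 5) in vehicle, 1519.7 ± 69.6 (SD, n = 6) in GDF15 and 1475 ± 37.3 (SD, n = 5) in pair-fed mice, and its log2 fold changes lay between -0.01 and 0.04 in the 3 comparisons. The interval for Prkaca between GDF15 and pair-fed mice ran from -2.61% to 8.80%. Prkacb (chr3:146729574-146812990, minus strand) encodes the other main catalytic subunit and had 943, 792, 836, 848 and 887 normalized counts in the vehicle and 774, 778, 856, 821 and 749 in the pair-fed mice, with 802, 859 and 879 as the lowest, median and highest value in the GDF15 mice. Of the 5 pair-fed mice 3 lay below every vehicle and every GDF15 mouse, and the groups overlapped. The log2 fold change of Prkacb was -0.11 in pair-fed against vehicle (95% CI -0.22 to -0.01, limma adjusted p = 0.239) and 0.10 in GDF15 against pair-fed mice (95% CI -0.00 to 0.20, adjusted p = 0.388). Between GDF15 and vehicle mice it was -0.01 (95% CI -0.12 to 0.09, adjusted p = 0.961).

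The regulatory subunits hold the catalytic subunits inactive until cAMP binds. Prkar1a (chr11:109649405-109669656, plus strand), whose product is mostly soluble, had 1903, 1988, 1989, 2043 and 2008 normalized counts in the vehicle mice. In the pair-fed mice Prkar1a had 1605, 1877, 1996, 1693 and 1961, and in the GDF15 mice it ran from 1810.3 over a median of 1953 to 2151. The pair-fed mice thus spread over 170.5 normalized counts (SD, n = 5) around a mean of 1826, and the vehicle mice over 51.7 (SD, n = 5) around 1986. The log2 fold change of Prkar1a was -0.13 in pair-fed against vehicle (95% CI -0.25 to -0.00, limma adjusted p = 0.262) and 0.09 in GDF15 against pair-fed mice (95% CI -0.02 to 0.21, adjusted p = 0.50). Without pair-fed mouse 2 these values of Prkar1a were -0.08 (adjusted p = 0.519) and 0.05 (adjusted p = 0.791). Over 29 other fits, with another setting or 1 library left out, the former ran from -0.16 to -0.06 (limma adjusted p from 0.155 to 0.864). Prkar2a (chr9:108689314-108750436, plus strand) had 3977 ± 205 normalized counts (SD, n = 5) in vehicle, 3871 ± 254 (SD, n = 6) in GDF15 and 3899.7 ± 144 (SD, n = 5) in pair-fed mice. Its log2 fold changes lay between -0.04 and -0.01, and its interval between GDF15 and pair-fed mice ran from -7.38% to 6.14%. With the endothelial covariate the values of Prkar2a were -0.17 in GDF15 (limma adjusted p = 0.384) and -0.15 in pair-fed mice (adjusted p = 0.358) against vehicle.

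Pkia (chr3:7366669-7445366, plus strand) encodes the α form of PKI, a small protein that occupies the active site of a free catalytic subunit and carries it out of the nucleus. It had 9801, 9211, 9608, 9379 and 9683 normalized counts in the vehicle mice and 9114, 9288, 9356, 8954 and 8876 in the pair-fed mice. In the GDF15 mice the lowest, median and highest values of Pkia were 9007, 9415 and 9652. Of the 5 pair-fed mice 3 lay below every vehicle mouse, and the groups overlapped. The log2 fold change of Pkia was -0.06 in pair-fed against vehicle (95% CI -0.13 to 0.00, limma adjusted p = 0.270), 0.04 in GDF15 against pair-fed (95% CI -0.02 to 0.10, adjusted p = 0.616) and -0.03 in GDF15 against vehicle mice (95% CI -0.09 to 0.04, adjusted p = 0.814). Its ratio to the summed level of Prkaca and Prkacb per kilobase of median transcript was 14.7 in vehicle, 14.3 in GDF15 and 14.4 in pair-fed mice, or 3.09, 3.0 and 3.03 with the longest length.

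Several of these transcripts varied little from mouse to mouse. The SD within groups on the log2 scale was 0.03 for Pkia, 0.04 for Gnas, 0.05 for Prkaca, 0.07 for Prkacb, 0.08 for Prkar2a, 0.09 for Adcy2, 0.10 for Prkar1a, 0.15 for Adcy9 and 0.20 for Adcy6, beside a median of 0.17 over all tested genes. Of all tested genes 0.0591% had a smaller SD than Pkia, 0.279% than Gnas and 1.46% than Prkaca. High counts also narrow this spread, so the figures describe precision at these levels. The intervals above combine the spread of each gene with the spread that limma expects at its level. For Gnas and Pkia they reached no further than 0.14 from 0 on the log2 scale in any comparison.

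The genes whose level over the 16 libraries was most like that of each member were named by Pearson's r on the log2 scale, as a description over libraries that share their groups and scaling. For Adcy9 these were Nt5c1a and Ndufv3, both with r = 0.90. For Gnas they were Prodh (0.86) and Svil (0.84), for Adcy2 Idh1 (0.82) and Ackr3 (0.81), and for Adcy6 Nln (0.86) and Inpp5e (0.81). Prkaca was closest to Ifi27l2a (0.81) and Naa20 (0.79), and Prkacb to Zmiz2 (0.83) and Ano5 (0.82). Prkar1a was closest to Unc13c and Igfbp7 (0.87 each), Prkar2a to Ube2e1 (0.87) and Ecpas (0.86), and Pkia to Tspan9 (0.88) and Wwox (0.85). Among the 9 genes themselves, the largest positive values were 0.71 for Adcy9 with Pkia and 0.69 for Prkacb with Pkia. Gnas went the other way, with r = -0.67 to Prkacb, -0.67 to Pkia and -0.63 to Prkar1a.

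Around the 9 genes, 5 lists of pathway genes held 69 symbols, of which 58 were tested. Between GDF15 and pair-fed mice 2 of the 58 were called higher, where 0.929% of all tested genes were, and 0 lower, with 7 at an unadjusted p under 0.05 (13.2% of all tested genes) and a median log2 fold change of 0.07 beside 0.00 for all tested genes. Between GDF15 and vehicle mice limma called 0 of 58, against 0.769% of all tested genes, with 4 at an unadjusted p under 0.05 (11.0% of all tested genes) and a median of -0.02, and between pair-fed and vehicle mice 1 was called higher (3.20% of all tested genes) and 3 lower (3.17%), with 11 at an unadjusted p under 0.05 (18.9%) and a median of -0.07. The 10 tested paralogues of the 9 genes had 0 calls in each comparison by limma, against 2.17%, 0.769% and 6.37% of all tested genes, with 0, 0 and 1 at an unadjusted p under 0.05, against 13.2%, 11.0% and 18.9%. Of the paralogues 9 of 10 had a positive value between GDF15 and pair-fed mice, against 50.8% of all tested genes, with a median of 0.30, and most of them were at low counts. In that comparison the 6 macrophage and the 6 Schwann cell markers also had positive values throughout, with medians of 0.50 and 0.43 and 0 called by limma (0 and 2 at an unadjusted p under 0.05). Their sums ran from 234 to 533 and from 1084 to 1513 normalized counts in GDF15, and from 193 to 472 and from 611 to 1608 in pair-fed mice, and the sum of the 3 red blood cell markers ran from 838 to 2556 in GDF15 and from 79.9 to 3743 in pair-fed mice. All 3 red blood cell markers (median 1.17), 5 of 5 fibroblast markers (median 0.35) and 5 of 5 smooth muscle markers (median 0.08) were positive too, with 0 called and 0, 0 and 1 at an unadjusted p under 0.05. The remaining lists were mixed or negative: 3 of 8 muscle fibre markers had positive values (median -0.07), with Actn3 called lower and 3 at an unadjusted p under 0.05, as did 4 of 6 endothelial, 3 of 6 adipocyte and 0 of 2 tested satellite cell markers, with 0 called. The part of all these lists in the values of the paralogues was not tested. Of the 14 tested CREB factors, CREB coactivators, salt-inducible kinases and phosphatase regulators, 0 were called in any comparison, against 2.17%, 0.769% and 6.37% of all tested genes, with 3, 1 and 2 at an unadjusted p under 0.05, against 13.2%, 11.0% and 18.9%. Their medians were 0.08 between GDF15 and pair-fed, -0.03 between GDF15 and vehicle, and -0.10 between pair-fed and vehicle mice.

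**Figure D4:**
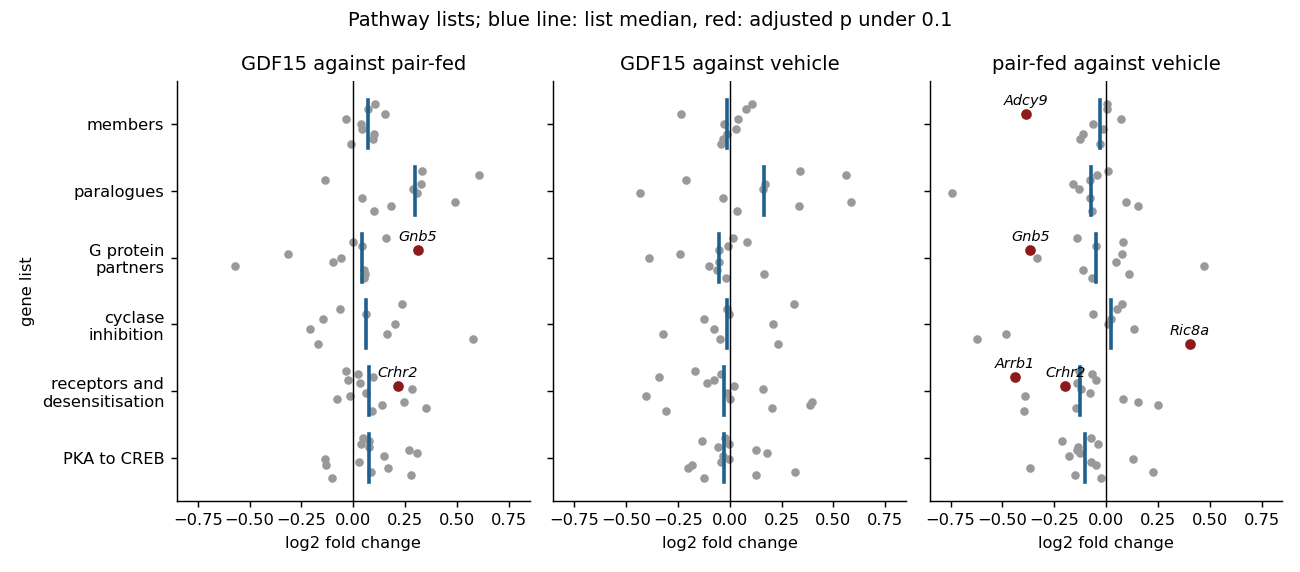
Log2 fold change of each tested gene of the 9 members and the 5 pathway lists (points) with the median of the list (blue line), in each of the 3 comparisons; red points with names were called at an adjusted p under 0.1. The called genes are Gnb5 and Crhr2 between GDF15 and pair-fed mice, and Adcy9, Gnb5, Ric8a, Arrb1 and Crhr2 between pair-fed and vehicle mice.

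The called pathway genes encode a receptor, an arrestin and proteins that handle G protein subunits, and none of them passed the log2 fold change of 0.6 as well. Arrb1 encodes β-arrestin, which uncouples phosphorylated receptors from Gs, and had 408, 359.6, 469, 337 and 366 normalized counts in the vehicle and 276, 272, 273, 325 and 275 in the pair-fed mice. The groups did not overlap, and the log2 fold change of Arrb1 in pair-fed against vehicle mice was -0.44 (95% CI -0.63 to -0.25, limma adjusted p = 0.0160). In GDF15 against vehicle mice the groups did not overlap in Arrb1 either, with a log2 fold change of -0.34 (95% CI -0.53 to -0.16) that was not called (limma adjusted p = 0.114). Between GDF15 and pair-fed mice it was 0.10 (95% CI -0.09 to 0.28, adjusted p = 0.683). With the endothelial marker sum as a covariate the value of Arrb1 between pair-fed and vehicle mice was -0.55 with an adjusted p of 0.114.

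Gnb5 encodes a G protein β subunit that pairs with regulators of G protein signalling rather than with Gs. It had 294, 305, 409, 323 and 313 normalized counts in the vehicle and 252, 247, 259, 257 and 249.8 in the pair-fed mice, without overlap, and from 257 over a median of 326 to 349 in the GDF15 mice. Its log2 fold change was -0.37 in pair-fed against vehicle (95% CI -0.55 to -0.18, limma adjusted p = 0.0316) and 0.31 in GDF15 against pair-fed mice (95% CI 0.13 to 0.49, adjusted p = 0.0906). Leaving out each of the 16 libraries in turn gave values of Gnb5 from 0.28 to 0.37 in the latter comparison. Its call there was lost without any one of 13 of them (all but vehicle 1, vehicle 3 and GDF15 1). It was lost under 5 other settings too: no minimum count, no trend, a fit of only the groups compared, depth as a covariate (0.23, adjusted p = 0.332), and the deposited log2 values themselves, whose scale compresses differences (0.17, adjusted p = 0.104). Leaving out 1 library kept the call of Gnb5 between pair-fed and vehicle mice, and the endothelial covariate ended it (-0.25, adjusted p = 0.516).

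Crhr2 encodes a urocortin receptor that couples to Gs. Its normalized counts were 641, 613, 722, 699 and 692 in the vehicle and 598, 608, 641, 546 and 545 in the pair-fed mice, and ran from 632 over a median of 681 to 740.4 in the GDF15 mice. The log2 fold change of Crhr2 was 0.21 in GDF15 against pair-fed (95% CI 0.09 to 0.34, limma adjusted p = 0.0922) and -0.20 in pair-fed against vehicle mice (95% CI -0.33 to -0.07, adjusted p = 0.0882). The first of these calls was lost without any one of 11 libraries (all but vehicle 2, vehicle 3, GDF15 3, pair-fed 3 and pair-fed 4). It was lost under 5 other settings too: weights for library quality, no minimum count, no trend, the replicate block, and a fit of only the groups compared (adjusted p from 0.109 to 0.175). Over all 16 libraries left out in turn its log2 fold change ran from 0.19 to 0.25. The other call, pair-fed against vehicle, was lost without any one of 8 libraries (vehicle 1, 3, 4 and 5, GDF15 2 and pair-fed 2, 5 and 6), and with the endothelial covariate (-0.14, adjusted p = 0.651). Over all 16 libraries left out in turn its log2 fold change ran from -0.23 to -0.17. No minimum count, no trend, the fit of only the groups compared and the replicate block ended the latter call as well (adjusted p from 0.105 to 0.213). Ric8a, a chaperone of the α subunits of inhibitory and other G proteins, had 163, 205, 202, 208 and 207 normalized counts in the vehicle and 265, 205, 287, 253 and 297 in the pair-fed mice. Its log2 fold change was 0.40 (95% CI 0.15 to 0.65, limma adjusted p = 0.0659), and ran from 0.34 to 0.49 over all 16 libraries left out in turn. Its call was lost without any one of 8 libraries (vehicle 1, 2, 3 and 5 and pair-fed 2, 4, 5 and 6), with the replicate block (0.33, adjusted p = 0.146), and with the endothelial covariate (0.33, adjusted p = 0.551).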

How the data were processed

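Libraries of TA muscle RNA from 5 vehicle, 6 GDF15 and 5 pair-fed mice were used, with groups taken from the labels. Per the labels, the libraries were made with a strand-specific kit and processed with Trim Galore, Salmon, DESeq2 and the mm10 build, and versions are not given in the sources used here. The authors deposited log2 values from 7.32 to 19.96, which look like output of the variance stabilizing transformation in DESeq2. They were transformed back in closed form to normalized counts, which returned the deposited values within 3.6e-15. Low values lay within 0.1 reads of a whole read in 88.6% to 96.8% of cases per library for genes with 1 annotated transcript, but in 20.2% to 26.3% for those with over 4, so count tests were not run.

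The 11841 genes whose normalized counts averaged 10 or more entered limma 3.58.1 (R 4.3.3; lmFit, contrasts.fit, eBayes with a trend) as log2(normalized count + 1), with all 3 groups in 1 fit and Benjamini-Hochberg adjustment over these genes. The tests were two-sided and measure the spread between mice. For this muscle the paper combined 2 thresholds, 0.6 for the size of the log2 fold change and 0.1 for the adjusted p. Here a gene was called by the adjusted p alone, and counts with both are given apart. Coordinates and lengths came from GENCODE vM21 (GRCm38), in which 14282 of 14538 symbols were found. Promoter sequences came from RefSeq (GRCm38.p6), which gave none for Adcy6 and Pkia. Named were the 9 members, the pathway list genes called in any comparison, the paralogues for their level, and the 2 genes most like each member. The members and lists were chosen with earlier results of these data known, and no list was tested as a set. Alternatives were other pseudocounts, minimum counts, scalings, weights, covariates, the replicate number as a block, and each library left out in turn.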

Additional observations from a re-analysis of the deposited data

Results flagged for a closer look

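Each of the 9 genes was examined in each of the 3 groups for a mouse far from the others of its group, 27 groups in all, and chance alone marks about 1 in 20 groups. In 4 of them the gap to the nearest mouse divided by the range of the group, both taken on log2(normalized count + 1), passed Dixon's 95% limit. In Gnas, GDF15 mouse 2 had 17466 normalized counts, the lowest of a group that reached 18692, with a ratio of 0.830. Also in Gnas, pair-fed mouse 4 had 17751 in a group that reached 19316, with a ratio of 0.739. In Adcy2, pair-fed mouse 2 had 702 in a group that reached 847, with a ratio of 0.716, and in Prkar2a the same mouse had 4152, the highest of a group that began at 3798, with a ratio of 0.806.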

How the results depend on the processing

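Each of the 27 log2 fold changes of the 9 genes (3 comparisons) was recomputed under 29 alternatives, 783 values in all, of which 762 kept both direction and call. The 1 lost call was Adcy9 between pair-fed and vehicle mice with the endothelial marker covariate, chosen after seeing the data, at -0.28 (limma adjusted p = 0.466), which takes the count of called members from 1 to 0. This covariate goes with the group, so the fit cannot tell them apart. The counts of called members stayed at 0, 0 and 1 under every other alternative and without any one library.

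The direction changed in 20 values of 7 results, none of them called, and the cause was not tested. For Prkar2a between GDF15 and pair-fed mice it was 0.010 with quantile normalization. For Prkar1a between GDF15 and vehicle mice it was 0.013 with depth and 0.036 with the endothelial markers as a covariate. Leaving out each library in turn gave -0.033 to 0.05 for Adcy2 between pair-fed and vehicle mice (negative without vehicle 1 or 5 or pair-fed 3, 4 or 6), -0.006 to 0.15 for Adcy6 between GDF15 and pair-fed mice (negative without GDF15 5), and -0.028 to 0.06 for Adcy6 between pair-fed and vehicle mice (negative without vehicle 1 or 3 or pair-fed 3, 4 or 5). It gave -0.02 to 0.0 for Prkaca between pair-fed and vehicle mice (0.0 without vehicle 3), -0.04 to 0.021 for Prkacb between GDF15 and vehicle mice (positive without vehicle 1 or GDF15 5), and -0.04 to 0.014 for Prkar2a between GDF15 and pair-fed mice (positive without GDF15 5 or pair-fed 2).

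The mice of 1 replicate number are different animals. Over 14 same-numbered pairs the deviations from the group means correlated at -0.0994 to 0.0665, which cannot show whether mice were matched between groups. With the replicate number as a block the members called stayed at 0, 0 and 1, Adcy2 between pair-fed and vehicle mice turned to -0.031, and the calls among all tested genes went from 257 to 190 between GDF15 and pair-fed, from 91 to 38 between GDF15 and vehicle, and from 754 to 520 between pair-fed and vehicle mice. Leaving out 1 library in turn moved the calls among all tested genes, and so the background of the member counts, by over 1.5 times in places. Between GDF15 and pair-fed mice they ran from 66 (0.557%, without pair-fed 5 or 6) to 372 (3.14%), with 86 without pair-fed 2 and 92, 130 and 166 without GDF15 4, 2 and 3. Between GDF15 and vehicle mice they ran from 45 to 97, with 60 or fewer without vehicle 1, 2, 3 or 5 or GDF15 2, 4 or 6. Between pair-fed and vehicle mice they ran from 406 (3.43%, without pair-fed 5) to 1048 (8.85%), with 408 without pair-fed 6, 460 without pair-fed 2 or vehicle 5, and 476 without vehicle 2. Other settings moved these calls by over 1.5 times as well. Between GDF15 and pair-fed mice they were 106 with the depth covariate, 115 with no trend and 122 with only the groups compared. Between GDF15 and vehicle mice they were 31 with the depth covariate, 48 with no trend and 12 with the endothelial covariate, and between pair-fed and vehicle mice 27 with the endothelial covariate. With a minimum mean of 100, the share of tested genes called was 3.68% between GDF15 and pair-fed, 1.23% between GDF15 and vehicle, and 11.5% between pair-fed and vehicle mice. With the log2 fold change of 0.6 required too, the calls among all tested genes ran from 15 (without pair-fed 5) to 62 (without pair-fed 3) between GDF15 and pair-fed mice (33 in the fit reported, and 17, 18, 19 and 21 without pair-fed 2, pair-fed 6, GDF15 4 and GDF15 2). Between GDF15 and vehicle mice they fell from 36 to 21, 22 and 23 without GDF15 2, vehicle 2 and vehicle 3, and between pair-fed and vehicle mice they ran from 60 (without pair-fed 5 or 6) to 157 (without pair-fed 3), beside 97 in the fit reported and 63 without pair-fed 2. In the same order of comparisons they were 7, 9 and 17 on the deposited log2 values, 19 in the first and 58 in the last with a minimum mean of 100, 19 in the GDF15 and vehicle comparison with the depth covariate and 20 with the replicate block, and 10 and 13 against vehicle with the endothelial covariate. Shares and ratios between members depended on the transcript length. Depth and 5 or 6 mice per group limit what the intervals can show.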
